A study of Homo sapiens with 9 samples.

Results

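The genes of major histocompatibility complex (MHC) class I were followed across 9 mouse thyroid tumors: 8 heavy chain genes of the mouse H2 locus and B2m, the gene of the light chain. The members were taken by symbol, as H2-K1, H2-D1, H2-Q4, H2-Q6, H2-Q7, H2-T22, H2-T23, H2-M3 and B2m, and all 9 were found among the 17369 genes of the expression table. All 9 also passed the filter on low values, which kept 10263 genes. The heavy chains were divided into the 2 classical genes, H2-K1 and H2-D1, and the 6 non-classical genes.

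The tumors were orthotopic, made by injecting 100000 TBP3743 cells into the thyroid of female mice aged 6 weeks and harvesting after 14 days. TBP3743 is a mouse anaplastic thyroid cancer line from a thyroid tumor with an activating Braf mutation and deletion of Trp53, both directed to the thyroid, so all 3 groups carry these alleles. The original/B6129SF1 group (n = 3) received the original cells in B6129SF1 hybrid mice. The adapted/B6129SF1 group (n = 3) received adapted TBP3743 cells in the same hybrid strain. The adapted/C57BL/6 group (n = 3) received adapted cells in inbred C57BL/6 mice. The adapted cells came from round 3 of serial subcutaneous passage in C57BL/6 mice, in which the largest tumors of each round were carried on, so they are a selected population and not independent derivations. The 2 mouse strains came from different suppliers, so strain and supplier cannot be told apart. Adapted/C57BL/6 and original/B6129SF1 differ in both the cells and the host. The mice were untreated. The groups compare the original with the adapted cells in 1 strain, and the adapted cells between both strains. The organism field of the labels reads human, although the tumors were grown in mice from mouse cells and the table carries mouse gene symbols.

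An MHC class I molecule is a heavy chain held together with beta-2 microglobulin, the product of B2m. It displays peptides from inside the cell on its surface. The classical molecules K and D present these peptides to CD8+ T cells and are found on nearly all nucleated cells. Non-classical heavy chains are usually less abundant and more specialised. H2-Q7 and H2-Q6 encode Qa-2 molecules, H2-T23 encodes Qa-1, which is read by the CD94/NKG2A receptor, H2-M3 presents N-formylated peptides, and H2-T22 is recognised by some gamma-delta T cells. Peptides are cut by the proteasome, carried into the endoplasmic reticulum by TAP and loaded there. Interferon gamma and the transactivator NLRC5 are known to raise the genes of this pathway.

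Values are FPKM, that is, fragment numbers divided by the length of the transcript and adjusted between tumors, so levels of different genes are compared here per length. Absolute depth is unknown. The steps between low FPKM values placed the relative depth of the tumors between 0.963 and 1.35 of original/B6129SF1 replicate 1. RNA came from whole tumor lysates, in which fewer cells of a type and less RNA per cell cannot be told apart. In adapted/B6129SF1 replicate 3, skeletal muscle genes took 7.35% of all FPKM, in adapted/C57BL/6 replicate 1 they took 1.32%, and in the other tumors at most 0.158%. Nkx2-1, a thyroid transcription factor, was present in every tumor at up to 44.5 FPKM, whereas the thyroid genes Tshr and Slc5a5 stayed near 0, at no more than 0.0703 and 0.142 FPKM. Of 5 epithelial markers, only Krt8, a keratin, passed in each adapted group, as lower, with log2 fold changes of -1.32 and -1.12 (limma, adjusted p = 0.0189 and 0.0346). The median log2 fold change of the 5 was -0.515 in adapted/B6129SF1 and 0.00204 in adapted/C57BL/6.

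All 9 class I genes were higher in adapted/B6129SF1 than in original/B6129SF1, and all 9 were higher in adapted/C57BL/6 than in original/B6129SF1. The mean FPKM was 1.88 to 6.74 times that of original/B6129SF1 in the adapted/B6129SF1 group and 2.11 to 7.53 times in the adapted/C57BL/6 group. No member differed between the adapted groups beyond the spread between tumors. Changes were largest for the non-classical Qa-2 genes and smallest for H2-T23, H2-M3, B2m and H2-D1. Differences are given on the log2(FPKM + 1) scale, with the limma standard error (SE) and a p-value adjusted over all genes tested.

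**Figure D1:**
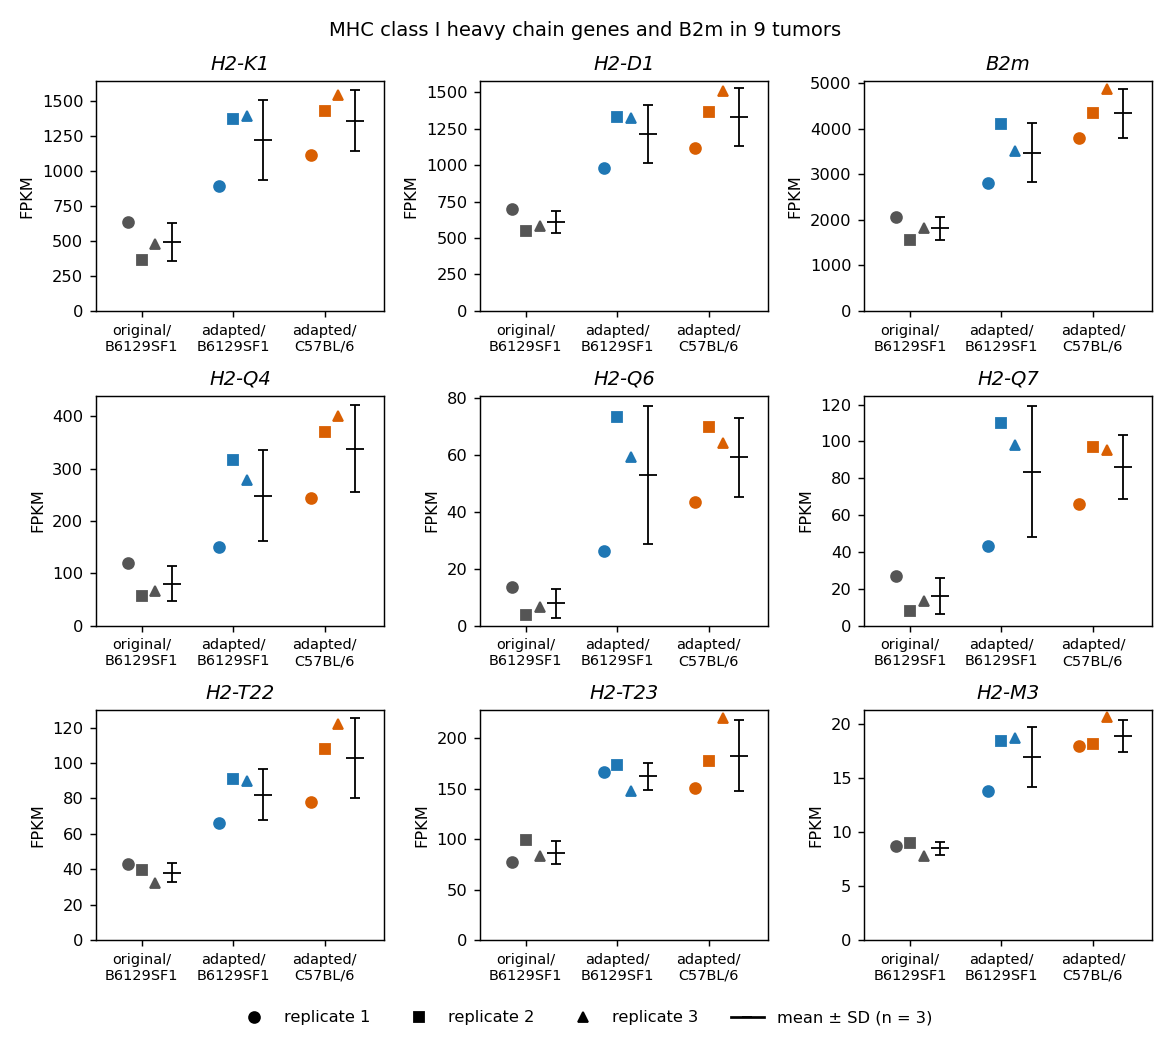
FPKM of the 9 class I genes in each tumor, with 1 panel per gene on a linear axis from 0, the 3 groups along the horizontal axis, 1 symbol per replicate, and the mean ± SD (n = 3) beside the points. In every panel each of the 6 adapted tumors lies above all 3 original/B6129SF1 tumors.

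The classical heavy chains were the most abundant of the heavy chains in every tumor. H2-K1, the K molecule, stood at 635, 367 and 479 FPKM in original/B6129SF1 replicates 1 to 3. It reached 894, 1377 and 1397 FPKM in the adapted/B6129SF1 tumors and 1116, 1431 and 1543 FPKM in the adapted/C57BL/6 tumors. The original/B6129SF1 tumors did not overlap with either adapted group, while the adapted groups overlapped with each other. The means were 494 ± 135, 1223 ± 285 and 1363 ± 222 FPKM (SD, n = 3), and H2-K1 rose by 1.31 (SE 0.249) in adapted/B6129SF1 and by 1.49 (SE 0.249) in adapted/C57BL/6 (limma, adjusted p = 0.0184 and 0.0110).

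H2-D1, the D molecule, stood at 696, 550 and 585 FPKM in original/B6129SF1. It was measured at 983, 1331 and 1322 FPKM in adapted/B6129SF1 and at 1118, 1365 and 1506 FPKM in adapted/C57BL/6. As for H2-K1, no original/B6129SF1 tumor reached the lowest adapted tumor. H2-D1 rose by 0.98 (SE 0.175) in adapted/B6129SF1 and by 1.12 (SE 0.175) in adapted/C57BL/6 (limma, adjusted p = 0.0147 and 0.00802). H2-K1 was below H2-D1 in all 3 original/B6129SF1 tumors, at 0.666 to 0.913 of its FPKM, and above it in 4 of the 6 adapted tumors. The ratio spanned 0.91 to 1.06 in adapted/B6129SF1 and 0.998 to 1.05 in adapted/C57BL/6, so original/B6129SF1 and adapted/B6129SF1 overlapped in it.

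B2m, the light chain shared by these molecules, was the most abundant member in all 9 tumors, ranking between the 5th and the 57th of all genes in a tumor. Its values were 2068, 1560 and 1818 FPKM in original/B6129SF1, 2801, 4091 and 3508 FPKM in adapted/B6129SF1, and 3797, 4347 and 4873 FPKM in adapted/C57BL/6. The lowest adapted tumor, adapted/B6129SF1 replicate 1, still stood above the highest original/B6129SF1 tumor. The means were 1815 ± 254, 3467 ± 646 and 4339 ± 538 FPKM (SD, n = 3). B2m rose by 0.93 (SE 0.193) in adapted/B6129SF1 and by 1.26 (SE 0.193) in adapted/C57BL/6 (limma, adjusted p = 0.0245 and 0.00748). Per summed heavy chain FPKM, B2m stood at 1.28 to 1.43 in original/B6129SF1, 1.03 to 1.20 in adapted/B6129SF1 and 1.20 to 1.34 in adapted/C57BL/6. The first and the second of these ranges did not overlap, and the first and the third did.

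The Q genes showed the largest differences, and in original/B6129SF1 and adapted/B6129SF1 they also had the widest spread among replicates of all members, with coefficients of variation of 35.1% to 65.2%. In adapted/C57BL/6 their spread was 20.1% to 24.4%, and H2-T22, at 21.8%, lay within that range. H2-Q4 had 119, 56.2 and 65.2 FPKM in original/B6129SF1, 150, 317 and 277 FPKM in adapted/B6129SF1, and 245, 370.0 and 400 FPKM in adapted/C57BL/6. The value of adapted/B6129SF1 replicate 1 was close to that of original/B6129SF1 replicate 1, while the other adapted tumors stood well above. H2-Q4 rose by 1.63 (SE 0.355) in adapted/B6129SF1 and by 2.11 (SE 0.355) in adapted/C57BL/6 (limma, adjusted p = 0.0286 and 0.0112).

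H2-Q6 and H2-Q7 are near-identical genes for Qa-2, so how reads were divided between them is uncertain and each is best read together with the other. H2-Q6 had 13.5, 3.62 and 6.36 FPKM in original/B6129SF1, 26.1, 73.2 and 59.1 FPKM in adapted/B6129SF1, and 43.3, 69.8 and 63.9 FPKM in adapted/C57BL/6. H2-Q7 had 27.1, 7.94 and 13.2 FPKM, then 43.0, 110 and 97.9 FPKM, then 66.2, 97.0 and 95.5 FPKM in the same order. In both genes original/B6129SF1 replicate 1 was the highest of its group and adapted/B6129SF1 replicate 1 the lowest adapted tumor. H2-Q6 rose by 2.64 (SE 0.468) in adapted/B6129SF1 and by 2.90 (SE 0.468) in adapted/C57BL/6 (limma, adjusted p = 0.0144 and 0.00949). H2-Q7 rose by 2.36 (SE 0.453) and 2.49 (SE 0.453) (limma, adjusted p = 0.0195 and 0.0164). H2-Q7 was 2.01 to 2.19 times H2-Q6 in original/B6129SF1, 1.50 to 1.66 times in adapted/B6129SF1 and 1.39 to 1.53 times in adapted/C57BL/6, and original/B6129SF1 did not overlap with either adapted group in this ratio.

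The T and M genes changed less than the Q genes. H2-T22 also has close relatives in sequence, so its reads carry the same uncertainty. It had 42.8, 39.4 and 32.2 FPKM in original/B6129SF1, 65.9, 90.8 and 90.0 FPKM in adapted/B6129SF1, and 78.2, 108 and 122 FPKM in adapted/C57BL/6. It rose by 1.08 (SE 0.195) in adapted/B6129SF1 and by 1.39 (SE 0.195) in adapted/C57BL/6 (limma, adjusted p = 0.0152 and 0.00561). H2-T23, the gene for Qa-1, was the exception among the members in its order of tumors. It had 76.9, 99.2 and 83.1 FPKM in original/B6129SF1, 167, 173 and 147 FPKM in adapted/B6129SF1, and 150, 177 and 220 FPKM in adapted/C57BL/6. Here the lowest adapted tumor was adapted/B6129SF1 replicate 3, whereas adapted/B6129SF1 replicate 1 was the lowest of the 6 for the other 8 members. H2-T23 rose by 0.91 (SE 0.155) in adapted/B6129SF1 and by 1.06 (SE 0.155) in adapted/C57BL/6 (limma, adjusted p = 0.0129 and 0.00670).

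H2-M3 was among the least abundant members, with 8.73, 8.95 and 7.76 FPKM in original/B6129SF1, 13.8, 18.4 and 18.7 FPKM in adapted/B6129SF1, and 18.0, 18.2 and 20.6 FPKM in adapted/C57BL/6. Its original/B6129SF1 tumors agreed most closely of all members, with a coefficient of variation of 7.46%, against 65.2% for H2-Q6. H2-M3 rose by 0.91 (SE 0.130) in adapted/B6129SF1 and by 1.07 (SE 0.130) in adapted/C57BL/6 (limma, adjusted p = 0.00741 and 0.00334).

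**Figure D2:**
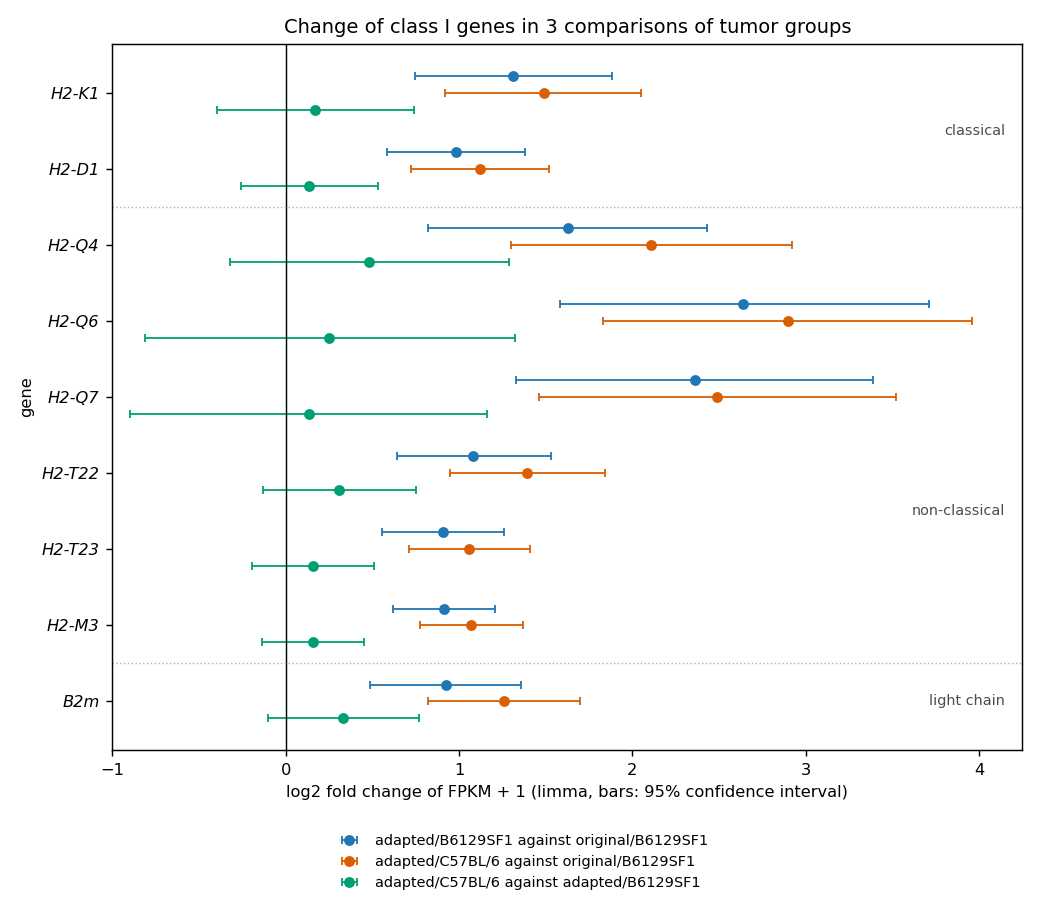
Log2 fold change of FPKM + 1 for each class I gene in 3 comparisons of groups, with the 95% confidence interval from limma. The intervals against original/B6129SF1 lie above 0 for all 9 genes in both adapted groups, and those between the adapted groups all include 0.

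In adapted/B6129SF1 against original/B6129SF1, 9 of 9 members passed an adjusted p of 0.05 as higher, where 4.37% of all genes tested did so. The 5 members H2-K1, H2-Q4, H2-Q6, H2-Q7 and H2-T22 also passed the study's cut of an absolute log2 fold change of 1, against 2.36% of all genes, and 9 of 9 did not overlap, against 13.6% of all genes. In adapted/C57BL/6 against original/B6129SF1 all 9 passed the adjusted p (background 3.99%), all 9 passed the fold as well (background 2.42%), and all 9 did not overlap (background 14.9%). The median log2 fold change of the members was 1.08 and 1.39, while that of all genes tested was -0.0292 and -0.0255. An exact two-sided permutation test of single genes cannot give a p below 0.1 with 3 tumors against 3, and each member gave that value against original/B6129SF1. These comparisons share the original/B6129SF1 tumors, so they are not independent of each other.

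The mean of both adapted groups was also set against original/B6129SF1, within the same model of 3 groups. Log2 fold changes ran from 0.98 for H2-T23 to 2.77 for H2-Q6 (limma, adjusted p from 0.00189 to 0.00765). All 9 members passed (background 6.06%), 7 of them with a log2 fold change above 1 (background 2.53%), and all 9 did not overlap (background 8.54%). With the 6 adapted tumors pooled against the 3 original/B6129SF1 tumors, the exact two-sided permutation p was 0.0238 for each member, the smallest value this design can give.

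How many members passed in the adapted/B6129SF1 comparison rested on few tumors. Without original/B6129SF1 replicate 3, H2-M3 was the only member to pass there (9 members, limma, adjusted p from 0.0374 to 0.101), and without original/B6129SF1 replicate 1 or 2, 7 of 9 passed in each case. Without adapted/B6129SF1 replicate 2 or 3, 5 and 6 of 9 passed. In adapted/C57BL/6, 6 of 9 passed without original/B6129SF1 replicate 3, 5 without adapted/C57BL/6 replicate 3 and 8 without adapted/C57BL/6 replicate 2. Leaving out both tumors with high muscle RNA, a setting chosen after seeing the data, left 5 of 9 in adapted/B6129SF1 and 9 of 9 in adapted/C57BL/6. A model with the replicate number as block left 6 and 8 of 9. The comparison of the 6 adapted tumors with original/B6129SF1 kept 9 of 9 in each of these settings.

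The hosts were compared with the same adapted cells in both. Every member had a higher mean in adapted/C57BL/6 than in adapted/B6129SF1, by log2 differences of 0.13 for H2-Q7 to 0.48 for H2-Q4, and 0 of 9 passed in limma (adjusted p from 0.838 to 0.971). None had an unadjusted p under 0.05, and the groups overlapped in all 9, where 6.32% of all genes were higher in adapted/C57BL/6 without overlap. Across all genes, 51.5% were higher in adapted/C57BL/6, 3 genes (0.0292%) passed the adjusted p, and 643 (6.27%) had an unadjusted p under 0.05. The 95% intervals of the difference were narrowest for H2-M3, from -0.14 to 0.45, and wide for H2-Q6, from -0.81 to 1.32, and H2-Q7, from -0.90 to 1.16. For H2-K1 the interval was -0.39 to 0.74, for H2-D1 it was -0.26 to 0.53, and for B2m it was -0.10 to 0.77. Without adapted/B6129SF1 replicate 1, the differences of H2-K1, H2-D1, H2-Q6 and H2-Q7 became -0.0386, -0.00778, -0.183 and -0.285, so the direction of these 4 rested on that tumor.

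Tumors within a group also differed as a whole. Adapted/C57BL/6 replicate 3 had the highest FPKM of all 9 tumors for 7 members, and adapted/B6129SF1 replicate 2 for the other 2, H2-Q6 and H2-Q7. Original/B6129SF1 replicate 2 had the lowest for 6 members, and original/B6129SF1 replicate 1 was the highest of its group for 7. Summed over the 8 heavy chains, the tumors held 1619, 1132 and 1272 FPKM in original/B6129SF1, 2342, 3491 and 3410 FPKM in adapted/B6129SF1, and 2834, 3636 and 3971 FPKM in adapted/C57BL/6. With B2m included, class I transcripts made up 0.502% to 0.785% of all FPKM in original/B6129SF1, 1.09% to 1.59% in adapted/B6129SF1 and 1.45% to 1.78% in adapted/C57BL/6.

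The make-up of the heavy chains shifted towards the non-classical genes. They made up 17.8%, 19.0% and 16.3% of the summed heavy chain FPKM in original/B6129SF1, 19.9%, 22.4% and 20.2% in adapted/B6129SF1, and 21.2%, 23.1% and 23.2% in adapted/C57BL/6. Every adapted tumor stood above every original/B6129SF1 tumor, and the adapted groups overlapped. On the log2(FPKM + 1) scale, the mean of the 6 non-classical genes minus that of H2-K1 and H2-D1 was -4.50 to -4.28 in original/B6129SF1, -4.08 to -3.81 in adapted/B6129SF1 and -3.91 to -3.82 in adapted/C57BL/6. The median log2 fold change was 1.15 for the classical and 1.35 for the non-classical genes in adapted/B6129SF1, and 1.31 and 1.75 in adapted/C57BL/6. These summaries are given without a test, since the members were chosen with results known.

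The shift was not shared by all non-classical genes. The Q genes went from 5.98% to 9.86% of heavy chain FPKM in original/B6129SF1 to 9.36% to 14.3% in adapted/B6129SF1 and 12.5% to 14.8% in adapted/C57BL/6, so original/B6129SF1 overlapped with adapted/B6129SF1 through its replicate 1 and not with adapted/C57BL/6. The T and M genes took 7.93% to 13.0% in original/B6129SF1 and lay inside that range in 5 of the 6 adapted tumors, the exception being adapted/B6129SF1 replicate 3 at 7.51%. Dividing the non-classical genes in this way was decided after their values were seen. The order of levels changed with it: H2-Q6 was below H2-M3 in 2 of 3 original/B6129SF1 tumors and above it in all 6 adapted tumors. H2-T23 was above H2-Q4 in original/B6129SF1 replicates 2 and 3 and adapted/B6129SF1 replicate 1, and below it in the other 6 tumors. In the order of mean levels, neighbouring members often overlapped within a group, such as H2-K1 with H2-D1 and H2-Q4 with H2-T23 in original/B6129SF1, whereas B2m, the classical genes and the other heavy chains never overlapped.

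**Figure D3:**
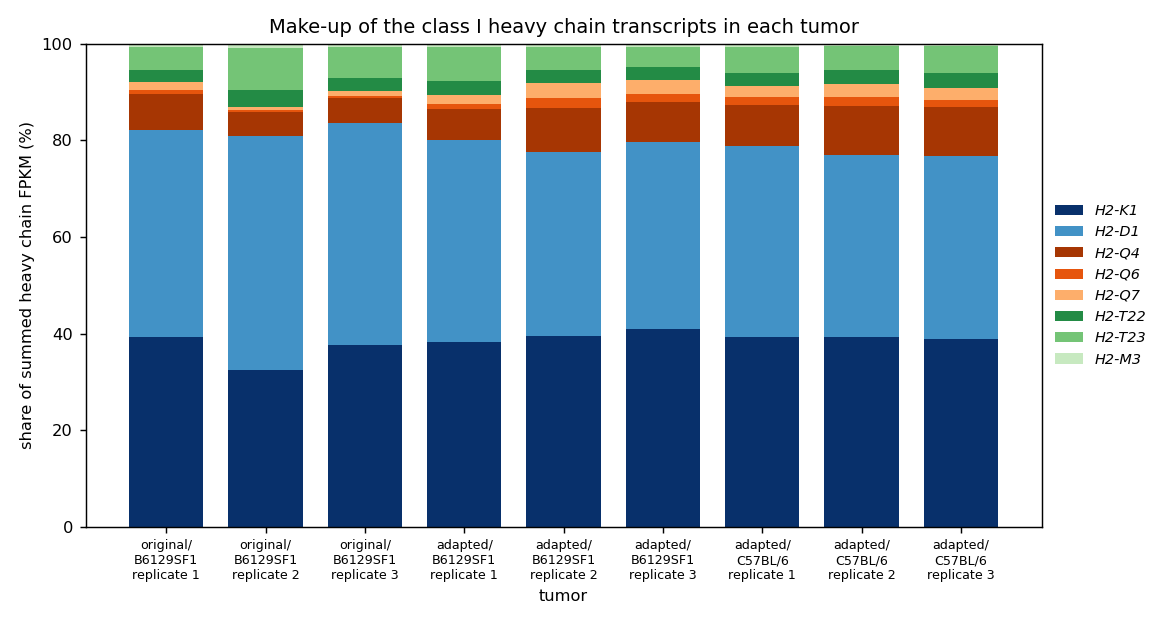
Share of each heavy chain gene in the summed heavy chain FPKM of each tumor, in percent, as stacked bars (classical genes blue, Q genes orange, T and M genes green). The classical genes fill 81.0% to 83.7% of the bar in original/B6129SF1, 77.6% to 80.1% in adapted/B6129SF1 and 76.8% to 78.8% in adapted/C57BL/6.

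Leukocytes carry much class I, so markers of other cells were set beside these results. The 10 leukocyte markers summed to 469 to 526 FPKM in original/B6129SF1, 729 to 1007 FPKM in adapted/B6129SF1 and 594 to 1074 FPKM in adapted/C57BL/6. All 10 had a higher mean in each adapted group, 2 of them (Arhgdib and Cd52) passed in adapted/B6129SF1 and 1 (Arhgdib) in adapted/C57BL/6, and none was at 0. The 10 T cell markers in the table summed to 5.14 to 8.32 FPKM, 9.57 to 41.8 FPKM and 27.0 to 40.2 FPKM, with 1 (Cd3g) and 2 (Cd3g and Cd2) passing. In original/B6129SF1 Cd3g fell to 0.967 FPKM and Cd2 to 0.877 FPKM, so both needed adapted tumors to meet the filter of 1 FPKM. Their p-values are therefore no evidence of a rise on their own. The 7 macrophage markers summed to 1272 to 1795 FPKM, 1874 to 2357 FPKM and 1111 to 2577 FPKM, and none passed. Dendritic cell markers summed to 3.55 to 6.05 FPKM, 11.2 to 14.3 FPKM and 12.3 to 14.3 FPKM. NK cell markers summed to 3.13 to 8.75 FPKM, 6.63 to 12.6 FPKM and 13.8 to 16.3 FPKM. No B cell marker reached the filter, and the highest value of any was 0.976 FPKM. With the mean level of the leukocyte markers as a covariate in limma, 0 of 9 members passed against original/B6129SF1. Their log2 fold changes were then 0.73 to 2.31 in adapted/B6129SF1 (adjusted p from 0.136 to 0.278) and 0.92 to 2.62 in adapted/C57BL/6 (adjusted p from 0.0579 to 0.155). In the main fit they were 0.91 to 2.64 and 1.06 to 2.9. The leukocyte sum itself did not overlap between original/B6129SF1 and the adapted tumors, so this fit cannot separate leukocyte RNA from group. The part of leukocyte RNA in the class I levels was not tested.

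In 2 tumors some immune markers lay within the original/B6129SF1 range while others, like all 9 members, stood above every original/B6129SF1 tumor. Adapted/C57BL/6 replicate 2 had 17.6 FPKM of Ptprc, the leukocyte gene for CD45, against 11.6 to 18.8 FPKM in original/B6129SF1, and the lowest macrophage sum of all 9 tumors, 1111 FPKM. Its leukocyte sum of 594 FPKM, T cell sum of 27.0 FPKM, dendritic cell sum of 13.3 FPKM and Ifng of 1.45 FPKM were above the original/B6129SF1 maxima of 526, 8.32, 6.05 and 0.216 FPKM. H2-K1 per Ptprc was 81.3 there, against 25.5 to 38.6 in original/B6129SF1 and 31.3 to 48.9 in the other adapted tumors.

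Adapted/B6129SF1 replicate 1 had Ifng at 0.158 FPKM, within the original/B6129SF1 range of 0.107 to 0.216, and Cd8a at 0.541 FPKM, within 0.416 to 1.01. Its NK cell sum of 6.63 FPKM also lay within the original/B6129SF1 range, 3.13 to 8.75 FPKM. Its leukocyte sum of 729 FPKM, T cell sum of 9.57 FPKM and macrophage sum of 2253 FPKM were above every original/B6129SF1 tumor. So were its dendritic cell sum of 11.2 FPKM, class II sum of 762 FPKM and Ptprc of 21.9 FPKM. Both tumors were singled out after their values were seen.

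MHC class II, which presents peptides to CD4+ T cells, differed from class I in its pattern over the groups. The summed class II list held 288, 230 and 329 FPKM in original/B6129SF1, 762, 2068 and 2075 FPKM in adapted/B6129SF1, and 725, 327 and 584 FPKM in adapted/C57BL/6. In adapted/B6129SF1 all 6 class II genes rose, among them H2-Aa by 2.48 and H2-Eb1 by 2.55 (limma, adjusted p = 0.0133 and 0.0129). Ciita, also 1 of the 6, had 0.749 to 1.12 FPKM in original/B6129SF1 and needed adapted tumors to meet the filter of 1 FPKM. The p of Ciita is therefore no evidence of a rise on its own. In adapted/C57BL/6 0 of 6 passed, with log2 fold changes of 0.67 to 0.98 (limma, adjusted p from 0.149 to 0.298). The difference between the adapted groups did not pass for any of them, with H2-Aa at -1.69 (95% interval -2.66 to -0.71, limma, adjusted p = 0.538). In adapted/C57BL/6 replicate 2, the class II sum of 327 FPKM lay just within the original/B6129SF1 range, while the heavy chain sum was 3636 FPKM. By gene, H2-Aa and H2-Eb1 lay within their original/B6129SF1 ranges in that tumor. H2-Ab1, H2-DMa, H2-DMb1 and Ciita stood above every original/B6129SF1 tumor there.

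**Figure D4:**
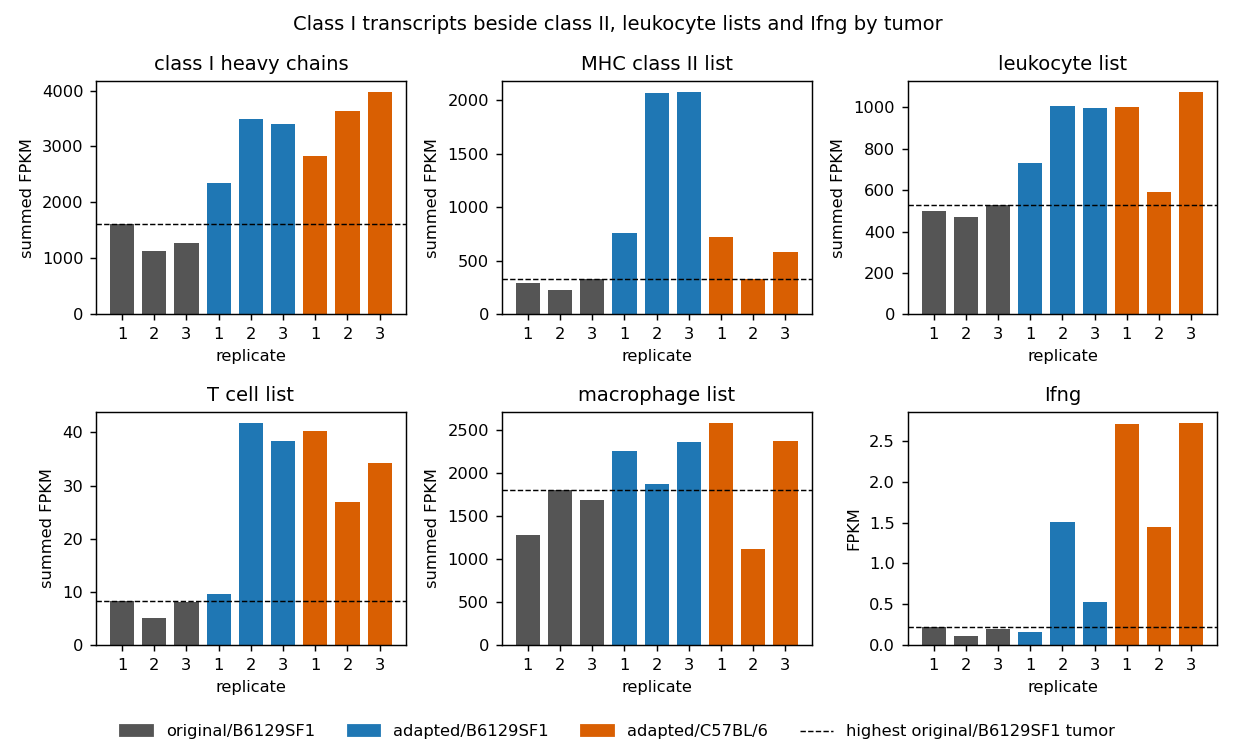
Summed FPKM of the 8 class I heavy chains, the MHC class II list and the leukocyte, T cell and macrophage lists, and FPKM of Ifng, in each tumor, as bars from 0, with the highest original/B6129SF1 tumor as a dashed line. Class I, the leukocyte list and the T cell list lie above the line in all 6 adapted tumors, while class II, macrophage genes and Ifng each fall below it in at least 1 of them.

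Several genes that supply peptides to class I were also higher. Of the immunoproteasome and its activator, 4 of 5 passed as higher in adapted/B6129SF1 and 5 of 5 in adapted/C57BL/6, with medians of 1.16 and 1.44. Psmb9, a catalytic subunit of the immunoproteasome, had 24.6, 15.2 and 15.6 FPKM in original/B6129SF1, 36.5, 93.5 and 82.8 FPKM in adapted/B6129SF1, and 63.5, 79.9 and 87.4 FPKM in adapted/C57BL/6. It rose by 1.81 and 2.02 (limma, adjusted p = 0.0176 and 0.0109), and Psmb8, another catalytic subunit, by 1.60 and 1.91. Psme2, of the PA28 activator, gave 0.42 in adapted/B6129SF1 (adjusted p = 0.219) and 0.81 in adapted/C57BL/6 (limma, adjusted p = 0.0473). Psmb6 and Psmb7, catalytic subunits of the constitutive proteasome, did not pass in either comparison (0 of 2).

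Of the 9 genes for peptide transport and loading, 4 passed as higher in adapted/B6129SF1 and 5 in adapted/C57BL/6. Tap1, a TAP subunit, had 22.9, 12.8 and 15.2 FPKM in original/B6129SF1, 27.4, 63.2 and 53.3 FPKM in adapted/B6129SF1, and 55.8, 67.0 and 79.5 FPKM in adapted/C57BL/6, again with adapted/B6129SF1 replicate 1 as the lowest adapted tumor. It rose by 1.40 and 1.96 (limma, adjusted p = 0.0309 and 0.00928). Tap2, the other subunit, rose by 1.13 and 1.47, Tapbp, for tapasin, by 0.84 and 1.26, and its relative Tapbpl by 0.90 and 1.22. Erap1, which trims peptides, passed in adapted/C57BL/6 alone, at 0.98 (limma, adjusted p = 0.0356), against 0.53 in adapted/B6129SF1 (adjusted p = 0.172), and the difference between the adapted groups did not pass (0.46, adjusted p = 0.814). The general chaperones Calr, Canx, Pdia3 and Hspa5 passed in neither.

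Of 13 transcription factors known at class I promoters, 1 rose and 1 fell in adapted/B6129SF1, and 2 rose in adapted/C57BL/6. Nlrc5, the class I transactivator, had 6.79, 2.29 and 4.20 FPKM in original/B6129SF1, 9.14, 12.9 and 12.7 FPKM in adapted/B6129SF1, and 14.7, 18.9 and 20.7 FPKM in adapted/C57BL/6. It rose by 1.29 and 1.89 (limma, adjusted p = 0.0319 and 0.00767). Irf1 rose in adapted/C57BL/6 by 1.46 (limma, adjusted p = 0.00527) and gave 0.68 in adapted/B6129SF1 (adjusted p = 0.0730). Rela, an NF-kappa B subunit, fell by 0.34 in adapted/B6129SF1. The remaining factors, among them Rfx5, Rfxap, Rfxank and the NF-Y genes, which act on class I and class II promoters alike, did not pass.

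**Figure D5:**
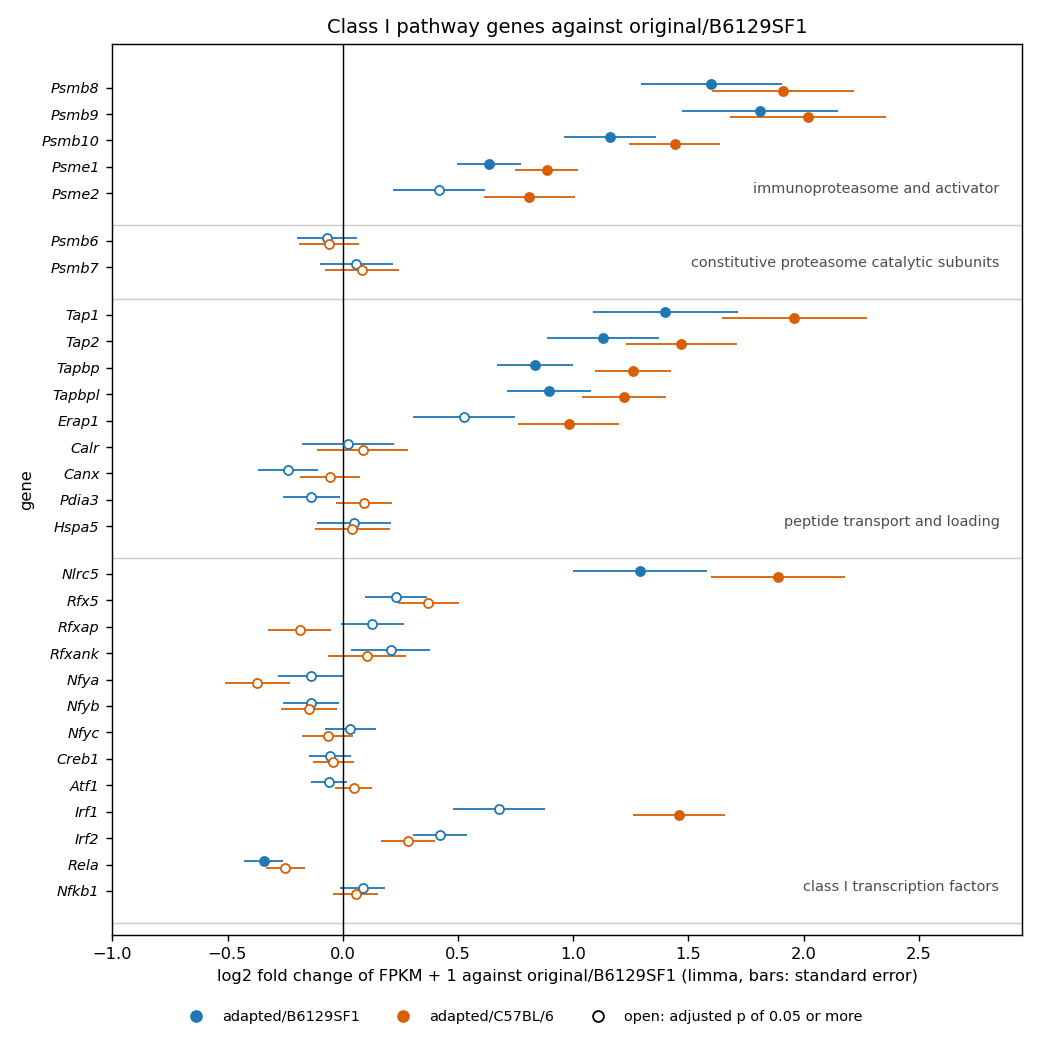
Log2 fold change of FPKM + 1 against original/B6129SF1 for genes of peptide generation, transport and loading and for transcription factors of class I, in adapted/B6129SF1 and adapted/C57BL/6, with the limma standard error as bars; filled points passed an adjusted p of 0.05. Filled points right of 0 cluster in the immunoproteasome, the TAP and tapasin genes and Nlrc5.

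Interferon genes themselves were low. Ifng had 0.216, 0.107 and 0.202 FPKM in original/B6129SF1, 0.158, 1.50 and 0.524 FPKM in adapted/B6129SF1, and 2.71, 1.45 and 2.72 FPKM in adapted/C57BL/6. It was higher in adapted/C57BL/6 by 1.46 (limma, adjusted p = 0.0230) and gave 0.48 in adapted/B6129SF1 (adjusted p = 0.324). No original/B6129SF1 tumor reached the 1 FPKM of the filter, so Ifng entered the test only through adapted tumors. Its p-values are therefore no evidence of a rise on their own. Of 7 genes of the interferon gamma pathway, 0 passed in adapted/B6129SF1 and 2, Irf1 and Ifng, passed as higher in adapted/C57BL/6, with that limit for Ifng. Of the 6 type I interferon pathway genes tested, Stat2 rose in both adapted groups, by 0.67 and 1.08, and Irf9 in adapted/C57BL/6, by 0.66. Ifnb1 was left out by the filter.

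The 13 genes whose pattern over the 9 tumors lay closest to H2-K1, H2-T22, H2-M3 or B2m included 5 from the immunoproteasome and peptide loading lists. Likeness was the root mean square (RMS) difference of centred log2(FPKM + 1) values over the 9 tumors, searched among 8121 genes and described here without a test. Closest to H2-K1 was Tap2, at an RMS difference of 0.105, followed by Sp140, Epsti1, Psmb10 and Sp110. Closest to H2-T22 was Ube2l6, which encodes an enzyme that conjugates ISG15, at 0.0531, followed by Psmb10, Epsti1, Ifi203 and Tapbp. H2-M3 was nearest to Samhd1, a dNTP hydrolase, at 0.122, then Parp9, Psme1, Tapbpl and Epsti1, and B2m to Tapbpl at 0.107, then Tapbp, Epsti1, Tap2 and Trim21. Among the members themselves, H2-D1 and B2m were closest, at 0.104, and H2-Q6 and H2-T23 farthest apart, at 1.04. Part of this likeness is the shared difference between the groups.

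Genes listed as receptors of class I did not follow 1 direction. Of the 7 tested, Klra2 rose by 1.72 and 1.73 (limma, adjusted p = 0.0236 and 0.0255). Klra4 fell by 1.75 and 1.18 (limma, adjusted p = 0.0117 and 0.0471). Both are Ly49 genes, a family that differs between mouse strains. Which cells carried these transcripts was not tested. Klra4 had 31.0, 17.8 and 28.1 FPKM in original/B6129SF1, 4.82, 8.62 and 7.24 FPKM in adapted/B6129SF1, and 15.1, 7.75 and 9.70 FPKM in adapted/C57BL/6. Klra1 was lower by 0.76 in adapted/B6129SF1, but it met the filter of 1 FPKM only through the original/B6129SF1 tumors. Cd8a gave 1.07 and 1.64 (limma, adjusted p = 0.163 and 0.0596). Klrc1 and Klrd1, for the NKG2A and CD94 chains that bind Qa-1, gave log2 fold changes of 0.70 and 1.33, and of 0.78 and 1.09, and none of these passed (limma, adjusted p from 0.0672 to 0.267). Klrc1 had at most 0.994 FPKM in original/B6129SF1 and met the filter of 1 FPKM only through adapted tumors. Of the 5 tested genes for NKG2D and its ligands, 0 passed in adapted/B6129SF1 or adapted/C57BL/6 alone. Klrk1, for NKG2D itself, was higher by 1.03 in the 6 adapted tumors (limma, adjusted p = 0.0354). It had at most 0.694 FPKM in original/B6129SF1 and met the filter of 1 FPKM only through adapted tumors. Its p is therefore no evidence of a rise on its own.

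Of 24 further H2 class I loci listed, 17 were in the table, and H2-T24 was the only one with enough signal to be tested. It had 4.45, 2.60 and 3.09 FPKM in original/B6129SF1, 10.36, 8.35 and 7.73 FPKM in adapted/B6129SF1, and 6.49, 5.82 and 8.55 FPKM in adapted/C57BL/6, and rose by 1.18 and 0.87 (limma, adjusted p = 0.0113 and 0.0330). Unlike the members, its highest value was in adapted/B6129SF1 replicate 1. Of the other 16, 6 were listed at 0 in all 9 tumors and 10 stayed under 2 FPKM in every tumor. Among 5 tested class I-like genes outside the H2 locus, Procr alone passed, in adapted/B6129SF1, at 0.81 (limma, adjusted p = 0.0262), against 0.67 in adapted/C57BL/6 (adjusted p = 0.0538).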

How the data were processed

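RNA of 9 tumors was measured, and groups and replicate numbers were taken from the labels. The authors aligned reads to the mouse genome mm10 with HISAT2 after FastQC and deposited FPKM made with Cuffnorm. The annotation and the treatment of reads shared by paralogs are not given in the sources used here, and the effect of strain differences at H2 on alignment to this C57BL/6 genome was not tested. FPKM are not counts, so in place of a count test log2(FPKM + 1) was fitted, for genes that reached 1 FPKM in 3 or more tumors, with limma 3.58.1 (R 4.3.3, mean-variance trend, 3 groups in 1 model), with Benjamini-Hochberg adjustment over all genes. Passed means an adjusted p under 0.05. Permutation tests used scipy 1.17.1. The fit was tested on simulated data. Replicates are separate tumors by their labels. No more than 0.0487% of genes had equal values in any pair of tumors.

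The members and gene lists were chosen with earlier results of these data known. Named are the members, listed genes with the largest, smallest or passing changes, genes the paper names, and the 5 genes closest to H2-K1, H2-T22, H2-M3 and B2m. Alternatives covered the pseudocount, the filter, scaling, samples, covariates, the replicate block, the trend, the call and each tumor left out. No sequences or coordinates were used here. The result of 1 listed gene is not reported here.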

Additional observations from a re-analysis of the deposited data

How the results depend on the processing

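Over 21 alternatives, the comparison of the 6 adapted tumors with original/B6129SF1 kept all 9 class I genes past an adjusted p of 0.05 in limma in 19. The exceptions were the leukocyte covariate (log2 fold changes 0.83 to 2.46, adjusted p from 0.0731 to 0.160) and limma's treat, which tests whether a log2 fold change exceeds 1, where 0 of 9 passed. In all comparisons together, 656 of the members' values kept direction and stayed on the same side of an adjusted p of 0.05. Another 96 no longer passed and 4 reversed. The 656 include values between the adapted groups, where no member passed in the main fit and none had a pass to lose. No scaling moved the median of all genes by more than 0.1. In adapted/B6129SF1, 7 of 9 passed with no filter, 6 when the model held just the pair of groups and 8 after quantile normalization, and in adapted/C57BL/6 8 passed with no filter.

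Counts of genes called were 330 in adapted/B6129SF1 and 317 in adapted/C57BL/6 against original/B6129SF1, 3 between the adapted groups and 348 for both adapted groups. They became 850, 693 and 1221 on adjusted p alone, 219, 199, 0 and 226 with a mean of at least 5 FPKM, 80, 133 and 130 with the leukocyte covariate (against original/B6129SF1), and 3, 7, 0 and 12 under treat. Between the adapted groups, no filter gave 1, and only the groups compared gave 0. Leaving out 1 tumor gave 141 to 358, 156 to 347, 0 to 6 and 221 to 370. The lowest were without original/B6129SF1 replicate 3 (141 and 221) and without adapted/C57BL/6 replicate 3 (156). Quantile normalization moved the non-classical minus classical difference in adapted/C57BL/6 to -3.92 from -3.86. Leaving out 1 tumor put it at -4.45 to -4.34 in original/B6129SF1, -4.02 to -3.89 in adapted/B6129SF1 and -3.87 to -3.83 in adapted/C57BL/6.

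In the fit with a replicate block, 242, 245, 0 and 309 genes were called. The members H2-Q4, H2-Q7 and B2m no longer passed in adapted/B6129SF1 (limma, adjusted p = 0.0705, 0.0553 and 0.0504). H2-Q7 no longer passed in adapted/C57BL/6 (limma, adjusted p = 0.0515). Deviations of same-numbered tumors had correlations from -0.388 to 0.614, the highest between replicate 2 of the adapted groups. Their means were -0.098 for original/B6129SF1 with adapted/B6129SF1, 0.16 for original/B6129SF1 with adapted/C57BL/6 and -0.012 between the adapted groups. These few values of mixed sign cannot tell whether the numbers pair the tumors. Without adapted/B6129SF1 replicate 1, the differences between adapted/C57BL/6 and adapted/B6129SF1 reversed to -0.0386 for H2-K1, -0.00778 for H2-D1, -0.183 for H2-Q6 and -0.285 for H2-Q7, with no call on either side. Over all tumors left out in turn, the highest values of these 4 were 0.31, 0.26, 0.55 and 0.38. The cause of these changes was not tested beyond the fewer tumors or genes in a fit. FPKM keep no depth, which limits what can be said of genes near 0.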
